A study of Mus musculus with 12 samples.

Results

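Csmd1, Csmd2, Csmd3, Cntnap2, Cntnap5a, Cntnap5b, Cntnap5c, Nbea and Lrp1b are very long genes that neurons transcribe. They are 9 of the 33250 gene symbols in a table of estimated read counts from mouse hippocampus, and all 9 were among the 19325 genes with enough counts to test. They were chosen by name with earlier results of these same 12 libraries known: their difference between genotypes and their covariation between animals selected them. Those 2 measures are therefore given as description: calls of the fit over all genes stand beside their share of all genes, and no result rests on them. PolyA RNA was sequenced from bulk hippocampus of male mice, 1 library per animal, whose age the labels do not give. The 6 wild-type (WT) animals carry no named allele. In the 6 animals labelled as conditional knockout (cKO), Cre recombinase is made in Emx1-positive cells. Cells with a history of Cre should lack the microRNA cluster running from miR379 up to miR410. Cells without that history should keep the cluster. No animals with Cre alone or with the floxed allele alone are described, so effects of Cre and of the lost cluster cannot be told apart.

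Csmd proteins are giant transmembrane proteins built from CUB and sushi domains, the modules of complement regulators. Cntnap proteins belong to the neurexin superfamily; Cntnap2 (Caspr2) holds Kv1 potassium channels beside the nodes of Ranvier and also acts at synapses. Neurobeachin (Nbea) is a BEACH-domain protein that binds protein kinase A and sorts receptors towards the synapse, and Lrp1b is an endocytic receptor of the LDL receptor family.

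Library totals lay between 42360558 and 51095758 counts. Levels are given as CPM, a gene's count scaled to a common library total, after TMM scaling between libraries. The library labelled cKO 1 stood with WT at 2 genes that separated the other libraries by genotype, Emx1 and B830012L14Rik. Emx1 was at 8.38 to 9.60 CPM in WT and 9.14 in the library labelled cKO 1, against 5.91 to 6.84 in cKO 2 to 6. B830012L14Rik, a long non-coding RNA annotated between Meg3 and Mirg on chr12, was at 0.310 to 0.865 CPM in WT and 0.788 in the library labelled cKO 1, against 17.4 to 25.8 in cKO 2 to 6. At these 2 genes its values go against its label, which may be wrong. Its summed level of smooth muscle and pericyte markers, though, lay with cKO. That sum was at 302 to 374 CPM in all 6 cKO libraries, against 240.3 to 282 in WT. Whether the label is wrong was not tested. Fold changes and covariation of the 9 genes, and the counts by list and by span, are therefore also given without that library. Hippocampal markers were present: Fibcd1 of CA1 neurons was at 170 ± 23.1 CPM in WT and 165 ± 18.5 in cKO, and Prox1 of granule neurons at 119 ± 13.0 and 103 ± 18.2 (SD, n = 6 each).

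On GRCm38 the 9 genes spanned 559 to 2245 kb each, nearly all of it intron. Cntnap2 lay at chr6:45059357-47304213, Lrp1b at chr2:40595246-42653624, Csmd1 at chr8:15892537-17535586 and Csmd3 at chr15:47580637-48792063. Cntnap5a lay at chr1:115684756-116587323, Cntnap5b at chr1:99772765-100485942 and Cntnap5c at chr17:57769570-58410355. Csmd2 lay at chr4:127987857-128567656 and Nbea at chr3:55625195-56183701. The longest annotated transcripts ran from 3931 bases in Cntnap5c to 16294 bases in Lrp1b, with 24 exons in each Cntnap gene and 91 in Lrp1b. Transcript GC content was 41.4% in Cntnap5a, 55.9% in Csmd2, and between these values in the other 7 genes.

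Csmd2, Nbea and Lrp1b shared no 31-base word with the transcripts of the other 8 genes, and Csmd1, Csmd3 and Cntnap2 shared at most 0.198% of theirs. The Cntnap5 genes shared more, with 3.04% of words in Cntnap5a, 10.03% in Cntnap5b and 9.28% in Cntnap5c. Reads of these 3 genes may therefore have been split between copies. Nbea exons overlapped 1043 bases of exons of other genes on the opposite strand, of Mab21l1 and Gm43376, and whether the counting used strand is not stated in the labels or notes used here. Lrp1b overlapped 99 exon bases of Gm27348.

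Levels between genes were compared as CPM per kb of the longest transcript. In WT, Nbea was highest at 33.3 ± 2.58 CPM per kb, followed by Cntnap2 at 13.3 ± 0.935 and Csmd1 at 6.75 ± 0.447. Csmd2 followed at 5.73 ± 0.459 CPM per kb, Cntnap5c at 4.98 ± 0.906, Lrp1b at 3.42 ± 0.610 and Cntnap5a at 3.37 ± 0.331. Cntnap5b, at 2.58 ± 0.452 CPM per kb, and Csmd3, at 2.54 ± 0.278, were the lowest (SD, n = 6 each). Nbea and Cntnap2, and Cntnap2 and Csmd1, did not overlap between WT animals; every later pair of neighbours did. The highest WT mean per kb was 13.1 times the lowest.

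In cKO, 8 of the 9 genes had a lower fitted level than in WT, and Csmd2 had a higher one. The median log2 fold change, cKO over WT, was -0.26 for the 9 genes and 0.01 over all genes tested. By the quasi-likelihood test of edgeR with Benjamini-Hochberg adjustment, 0 of the 9 passed the threshold of 0.05, where 0.0103% of all genes did. At an unadjusted p under 0.05, 8 of 9 were lower, against 6.34% of all genes. DESeq2 called 2 of 9 lower, Csmd1 and Nbea, against 0.37% of genes. With an offset for each library's trend over transcript length, chosen after seeing the data, the median of the 9 was -0.15. At an unadjusted p under 0.05 in edgeR, 5 of 9 were then lower, where 1662 of 19325 genes passed in either direction. Since the genes were selected on this contrast, nothing is read from these counts.

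No gene had all 6 cKO libraries below every WT library, a pattern found in 0.223% of genes. In Csmd3, Cntnap2, Cntnap5c and Nbea, cKO 2 to 6 lay below every WT library, as they did in 1.01% of genes. Without the library labelled cKO 1, 8 of 9 genes were again lower; 0 passed in edgeR, where 8 were lower at an unadjusted p under 0.05, against 8.96% of all genes in that fit. Fewer cells of a type and less RNA per cell cannot be told apart in bulk tissue.

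**Figure D1:**
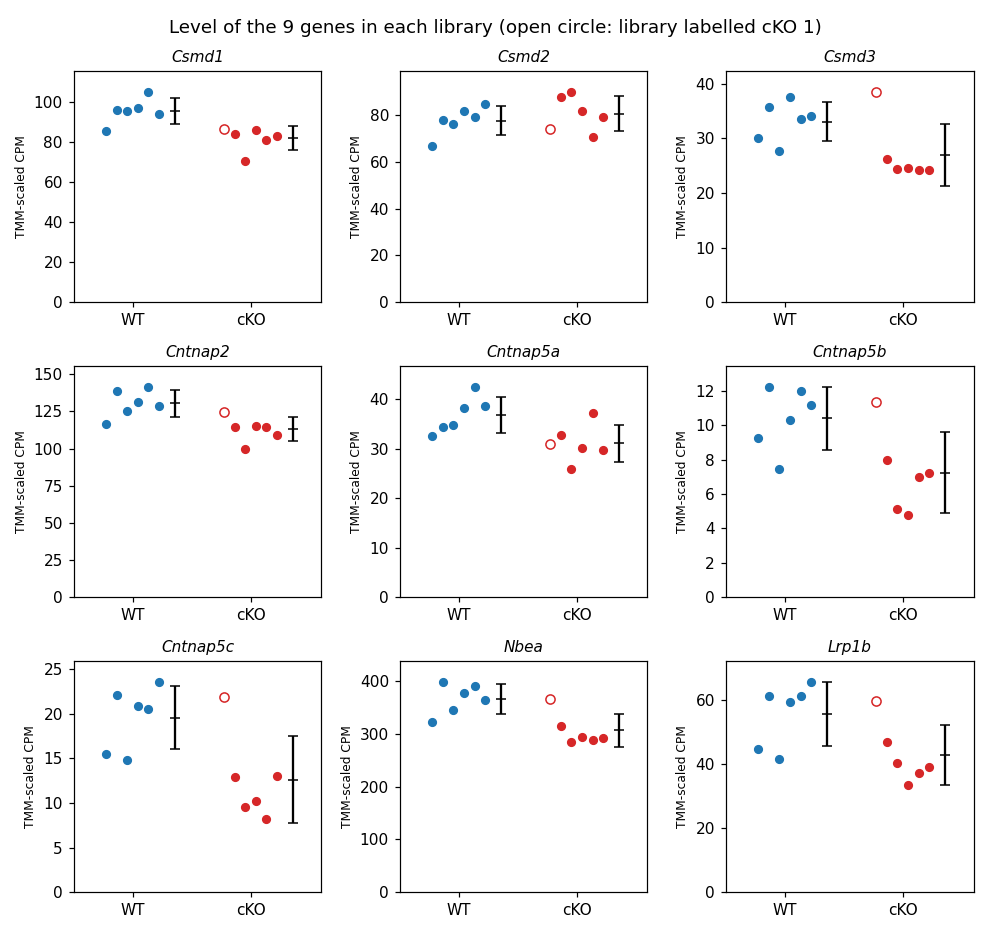
TMM-scaled CPM (y axis, from 0) of each gene in the 6 WT (blue) and 6 cKO (red) libraries, with mean ± SD in black. The open circle is the library labelled cKO 1, which lies below the WT range in Cntnap5a alone of the 9 genes, and Csmd2 is the only gene with a higher cKO mean.

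Csmd1, an inhibitor of complement, was at 85.6, 96.1 and 105 CPM in WT (lowest, median and highest library) and at 70.8, 83.9 and 86.7 CPM in cKO. The lowest WT library, WT 1, lay below the 2 highest cKO libraries, so the groups overlapped. Its log2 fold change was -0.22 ± 0.05 (SE), and -0.25 without the library labelled cKO 1. Csmd3, the member of the family with the lowest level per kb, was at 27.8, 33.8 and 37.5 CPM in WT and at 24.2, 24.5 and 38.5 CPM in cKO. The library labelled cKO 1 was the highest of all 12, and the other 5 cKO libraries lay between 24.2 and 26.3 CPM, below every WT library. Its log2 fold change was -0.29 ± 0.12, and -0.43 without that library.

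Csmd2 differed from its relatives in direction. It was at 66.6, 78.5 and 84.9 CPM in WT and at 70.8, 80.5 and 90.0 CPM in cKO, with wide overlap and a log2 fold change of 0.05 ± 0.07. Of 9 other CUB and sushi domain genes of neurons, 2 were higher and 7 lower, none past the threshold in edgeR or at an unadjusted p under 0.05, with a median log2 fold change of -0.05. Sez6l, which encodes a neuronal membrane protein with both kinds of domain, was at 412 ± 26.1 CPM in WT and 392 ± 16.6 in cKO (log2 fold change -0.07 ± 0.04). Susd2 was at 4.33 ± 0.592 and 5.21 ± 1.25 CPM, Srpx2 at 0.980 ± 0.150 and 0.858 ± 0.142, and Sez6l2 at 454 ± 20.9 and 438 ± 27.0. Of 14 complement genes, 11 were higher and 3 lower, none past the threshold in edgeR or at an unadjusted p under 0.05, with a median of 0.05. The complement receptor subunit Itgam was at 21.3 ± 1.08 CPM in WT and 19.9 ± 1.36 in cKO. C1qb, which starts the classical cascade, was at 34.4 ± 3.20 and 36.6 ± 3.53 CPM, and Cd46 at 8.40 ± 0.960 and 7.79 ± 0.824.

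Cntnap2 was at 116, 130.1 and 141 CPM in WT and at 99.9, 115 and 124 CPM in cKO. The library labelled cKO 1 was the highest of cKO, the only one within the WT range. The log2 fold change was -0.21 ± 0.05, and -0.24 without it. Cntnap5a was at 32.5, 36.5 and 42.5 CPM in WT and at 25.9, 30.6 and 37.1 CPM in cKO. Here cKO 5, not the library labelled cKO 1, was the highest cKO library, and the log2 fold change was -0.25 ± 0.08, the same to 2 decimals without the library labelled cKO 1.

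Cntnap5b had the fewest counts, 227 to 582 per library. It was at 7.43, 10.7 and 12.2 CPM in WT and at 4.79, 7.12 and 11.3 CPM in cKO. WT 3 lay below cKO 2 and the library labelled cKO 1, and the log2 fold change of -0.52 ± 0.19 became -0.70 without the latter. Cntnap5c was at 14.9, 20.7 and 23.5 CPM in WT and at 8.26, 11.6 and 21.8 CPM in cKO. Its log2 fold change of -0.63 ± 0.21 was the lowest of the 9, and it was -0.87 without the library labelled cKO 1, the only cKO library above 14.9 CPM. These 2 genes also varied most within cKO, with coefficients of variation of 32.6% and 38.7%, against 7.12% for Cntnap2. Without the library labelled cKO 1 these were 21.7%, 19.5% and 5.87%, and that of Csmd3 went from 21.02% to 3.46%.

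Partners of Cntnap2 are the contactins, the Kv1 channels and the scaffolds that join them. Of 19 Caspr relatives and partners, 4 were higher and 15 lower, and the median log2 fold change was -0.05. None passed in edgeR; at an unadjusted p under 0.05, 3 were lower. The adhesion molecule Nrcam was at 372 ± 40.4 CPM in WT and 327 ± 15.3 in cKO (log2 fold change -0.18 ± 0.07, edgeR adjusted p = 0.407). Adam22, which anchors Kv1 channel complexes, was at 226 ± 14.4 and 207 ± 10.97 CPM (-0.13 ± 0.05, edgeR adjusted p = 0.421). The channel subunits Kcna1, at 71.3 ± 11.9 and 61.6 ± 5.14 CPM, and Kcna2, at 219 ± 25.1 and 199 ± 17.9 CPM, had adjusted p of 0.520 and 0.585 by edgeR.

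Nbea had the highest level and the most counts, 12908 to 19084 per library. It was at 323, 370.2 and 397 CPM in WT and at 284, 293 and 365 CPM in cKO. The library labelled cKO 1, at 365 CPM, lay amid WT, and cKO 2 to 6 reached at most 314 CPM, below the lowest WT library. The log2 fold change was -0.26 ± 0.07, and -0.32 without the library labelled cKO 1.

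Of 19 other genes of BEACH proteins and of protein kinase A anchoring, 5 were higher and 14 lower; none passed in edgeR, where 7 were lower at an unadjusted p under 0.05. The median was -0.05, and -0.10 without the library labelled cKO 1. Akap9, a large anchoring protein of the Golgi and centrosome, was at 77.1 ± 8.76 CPM in WT and 64.6 ± 6.10 in cKO (log2 fold change -0.26 ± 0.08, edgeR adjusted p = 0.353). Akap11 was at 292 ± 26.0 and 254 ± 21.3 CPM (-0.20 ± 0.06, edgeR adjusted p = 0.368). Akap6 was at 245 ± 27.0 and 216 ± 9.68 CPM, and Wdfy3, a BEACH protein of selective autophagy, at 278 ± 26.0 and 252 ± 9.85 CPM.

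Lrp1b was at 41.7, 60.4 and 65.6 CPM in WT and at 33.7, 39.7 and 59.8 CPM in cKO. WT 1 and WT 3, at 44.8 and 41.7 CPM, lay well below the other 4 WT libraries, which started at 59.5 CPM, and below cKO 2 at 46.9 CPM. The same 2 WT libraries were the lowest of WT in Csmd2, Csmd3, Cntnap2, Cntnap5b, Cntnap5c and Nbea. The log2 fold change was -0.38 ± 0.14, and -0.51 without the library labelled cKO 1.

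Of 18 other LDL receptor family and chaperone genes, 11 were higher and 7 lower, with a median of 0.01. None passed in edgeR; at an unadjusted p under 0.05, 3 were higher and 1 lower. Sorl1, a sorting receptor, was at 433 ± 35.3 CPM in WT and 397 ± 20.6 in cKO (log2 fold change -0.13 ± 0.05, edgeR adjusted p = 0.484). The chaperone Lrpap1 was at 148 ± 6.15 and 157 ± 5.97 CPM (0.09 ± 0.03, edgeR adjusted p = 0.454). Another chaperone, Mesd, was at 44.0 ± 2.12 and 46.5 ± 1.49 CPM.

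The other protein-coding genes were set out by annotated span. Genes under 10 kb had a median log2 fold change of 0.03, and 30.6% of 3776 were lower in cKO. The median was 0.02 at 10 to 30 kb, 0.00 at 30 to 100 kb, -0.02 at 100 to 250 kb and -0.04 at 250 to 500 kb. At 500 kb or more it was -0.07, and 162 of 207 genes (78.3%) were lower. The bin medians without the library labelled cKO 1 ran from 0.03 to -0.08, and 160 of 208 of the longest genes were lower. Over the same bins the median transcript grew from 1914 to 5860 bases and transcript GC content went from 53.7% to 46.2%; their part in the trend was not tested.

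Among the 216 genes of at least 500 kb, ranked from the lowest log2 fold change, Cntnap5c was at place 3, Cntnap5b at 5 and Lrp1b at 9. Csmd3 was at 13, Nbea at 20, Cntnap5a at 22, Csmd1 at 26 and Cntnap2 at 31. Csmd2 was at 197. The order did not follow span: Cntnap2, the longest, had the smallest difference of the 8 lower genes, and Cntnap5c, at 641 kb, had the largest. Among the other 207, those with transcripts of 5860 bases or more had a median of -0.10 and those with shorter ones -0.04.

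**Figure D2:**
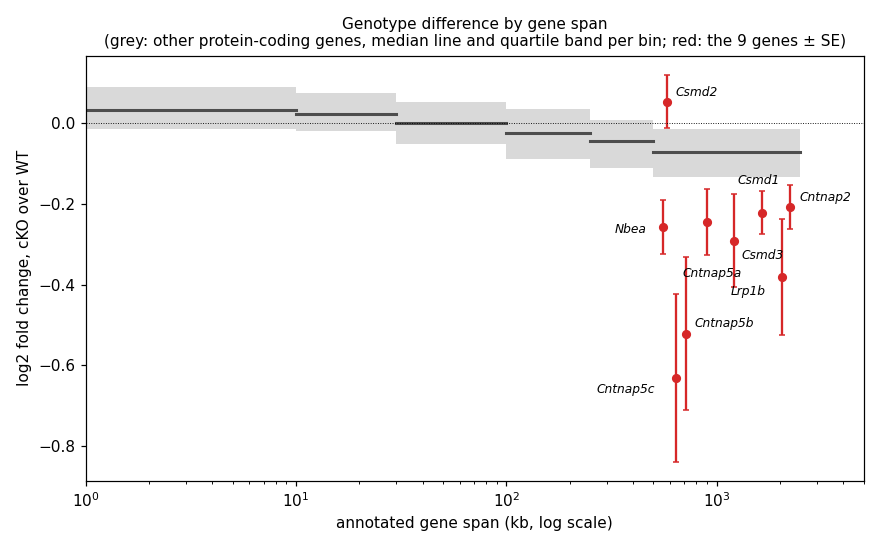
Log2 fold change, cKO over WT (y axis), against annotated gene span in kb (x axis, log scale). Grey lines and bands are the median and quartiles of other protein-coding genes per span bin, from 0.03 under 10 kb to -0.07 at 500 kb or more, and red points are the 9 genes ± SE, of which only Csmd2 lies above 0.

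A list of 54 other giant neuronal genes had 6 higher and 48 lower, with a median of -0.09; none passed in edgeR, where 11 were lower at an unadjusted p under 0.05. The cadherin Pcdh15 was at 16.4 ± 2.20 CPM in WT and 12.9 ± 1.61 in cKO (log2 fold change -0.35 ± 0.10, edgeR adjusted p = 0.349). The axon guidance receptor Robo2 was at 95.3 ± 7.34 and 81.8 ± 8.32 CPM (-0.22 ± 0.07, edgeR adjusted p = 0.353). The adhesion molecule Ncam2 was at 53.6 ± 6.73 and 45.2 ± 3.22 CPM, and the receptor phosphatase Ptprd at 176 ± 27.1 and 147 ± 15.1 CPM.

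Transcription of very long genes leans on topoisomerases, elongation factors and RNA-binding proteins. Of 27 tested genes of that kind, 7 were higher and 20 lower, with a median of -0.04 and none past the threshold in edgeR. At an unadjusted p under 0.05, 7 were lower and none was higher. Srsf11 was at 159 ± 3.77 CPM in WT and 146 ± 2.67 in cKO (log2 fold change -0.13 ± 0.02, edgeR adjusted p = 0.206). Pnisr was at 267 ± 13.5 and 234 ± 8.89 CPM (-0.19 ± 0.04, edgeR adjusted p = 0.225). Top2b, the topoisomerase of long neuronal genes, was at 95.9 ± 5.64 and 87.8 ± 2.85 CPM.

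None of the listed genes passed in edgeR without the library labelled cKO 1 either. Of all genes, 6.34% were lower at an unadjusted p under 0.05 with all 12 libraries, and 8.96% without that library. In the latter fit 2381 of 19457 genes passed in either direction. At that level 16 of 54 giant neuronal genes and 9 of 19 BEACH and anchoring genes were then lower. So were 9 of 27 genes of long-gene transcription and 4 of 19 Caspr relatives. In the LDL receptor family 9 of 18 were then lower, 3 of them at that level, and 2 of the higher ones also were at that level.

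The genes, selected in part for this covariation, varied together between animals once each genotype's mean was removed from log2 CPM. The values are therefore description. The 36 pairs had a median Pearson's r of 0.61 over 12 libraries and a median Spearman's rho of 0.45. Leaving out the 2 libraries farthest from the median of each pair's first gene gave a median r of 0.48. Within WT it was 0.70, within cKO 0.53, and without the library labelled cKO 1 0.55. With an offset for each library's trend over transcript length, chosen after seeing the data, the median r was 0.070. The median r of any of the 9 with 12153 other genes, not matched for transcript length, lay between -0.06 and -0.01. Given the selection, nothing is read from that comparison. The spread was wide: the 5th percentile of these r lay between -0.67 and -0.50, and the 95th between 0.54 and 0.71. All values share the same 12 libraries and their depth, so they are no independent points.

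Csmd3, Cntnap5b, Cntnap5c, Nbea and Lrp1b, grouped after their values were seen, had r between 0.80 and 0.89 in every pair, and between 0.61 and 0.83 without the library labelled cKO 1. Csmd1 and Cntnap2 had r = 0.88, and Cntnap2 and Nbea 0.85. Cntnap5a had r of 0.64 and 0.66 with Cntnap2 and Csmd1, and 0.11 with Cntnap5c, one of its 2 closest relatives by sequence. The 8 pairs with Csmd2 had a median r of 0.00, with 0.67 within WT, -0.41 within cKO and 0.32 without the library labelled cKO 1; the difference between genotypes was not tested. Without Csmd2, all 28 pairs had a positive r, with a median of 0.66.

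**Figure D3:**
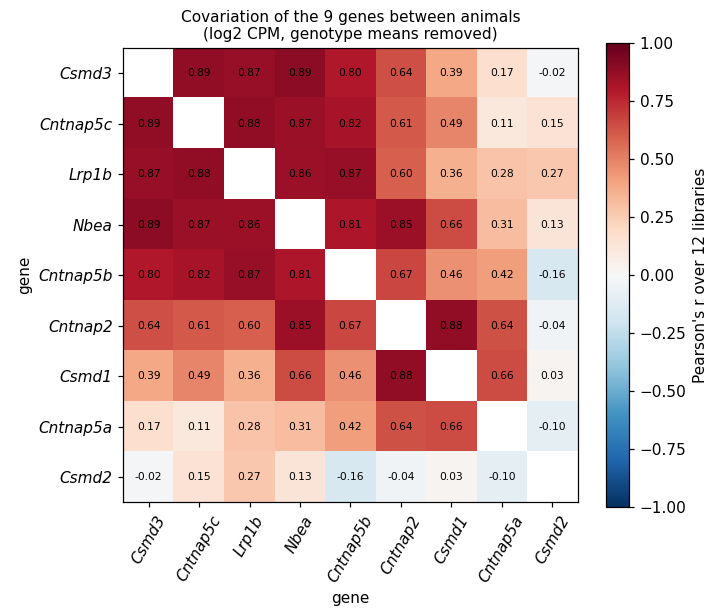
Pearson's r of genotype-centred log2 CPM over 12 libraries for each pair of the 9 genes (both axes list the genes; colour runs from -1 to 1). Csmd3, Cntnap5c, Lrp1b, Nbea and Cntnap5b form the darkest block, at 0.80 to 0.89 with the library labelled cKO 1 included, and the Csmd2 row lies between -0.16 and 0.27.

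The genes outside the 9 most like each one were found among 12162 genes with a mean of at least 5 CPM, by the highest r. Csmd1 was most like Ccser2 (r = 0.95), Dennd4a and Ppip5k2, and Csmd3 most like Zfp738 (0.96), Sfpq and Ube3a. Csmd2 was most like Frmd4a (0.93), Dnah1 and Prr12. Cntnap2 was most like Adgrl3 (0.97), a latrophilin adhesion receptor, then Fzd3 and Dennd4a. Cntnap5a was most like Glce (0.86), Kcna2 and Scn1a, Cntnap5b like Clock (0.96), Jmjd1c and Zkscan8, and Cntnap5c like Cnot1 (0.95), Son and Phc3. Nbea was most like Arfgef3 (0.97) and also like Akap11, itself an anchor of protein kinase A, and Lrp1b was most like Zfp871 (0.97), Fgd4 and Anapc1.

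For the same genes, r lay between 0.85 and 0.96 without the library labelled cKO 1. The 26 distinct genes were mostly not giant. Their median span was 70.0 kb, and 2 of them, Adgrl3 and Frmd4a, reached 500 kb. All 26 had transcripts longer than 3442 bases, the median of the protein-coding genes ranked, and their own median was 8768 bases.

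The mean log2 deviation of the 8 genes other than Csmd2 from the 12-library mean was 0.25 to 0.31 in WT 2, 4, 5 and 6. It was -0.02 in WT 1 and -0.03 in WT 3, 0.21 in the library labelled cKO 1, and -0.39 to -0.10 in cKO 2 to 6. Library-wide trends moved with it. Over 13897 protein-coding genes with a mean of at least 1 CPM, each library's deviation was correlated with gene span and transcript GC content. The measure was Spearman's rho across genes. The rho with span was -0.20 to 0.38 in WT and -0.28 to 0.04 in cKO, and with GC content -0.30 to 0.11 in WT and -0.08 to 0.25 in cKO.

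Across the 12 libraries, genotype centred, the mean deviation of the 8 genes had r = 0.62 with the span trend, 0.56 with the transcript length trend and -0.77 with the GC trend. The rho values were 0.71, 0.68 and -0.71. Leaving out the library labelled cKO 1 and cKO 3 gave r of 0.71, 0.70 and -0.68. It had r = 0.64 with the share of counts in 2567 gene models still awaiting experimental test (0.267% to 0.309% in WT, 0.257% to 0.278% in cKO). With Malat1, a nuclear RNA, r was 0.53, and with Ttr, a choroid plexus transcript, 0.11. Without the library labelled cKO 1 alone, r was 0.60 with the span trend, 0.56 with the length trend, -0.69 with the GC trend, 0.59 with that share, 0.38 with Malat1 and 0.01 with Ttr. The part of these measures in the genotype difference was not tested.

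**Figure D4:**
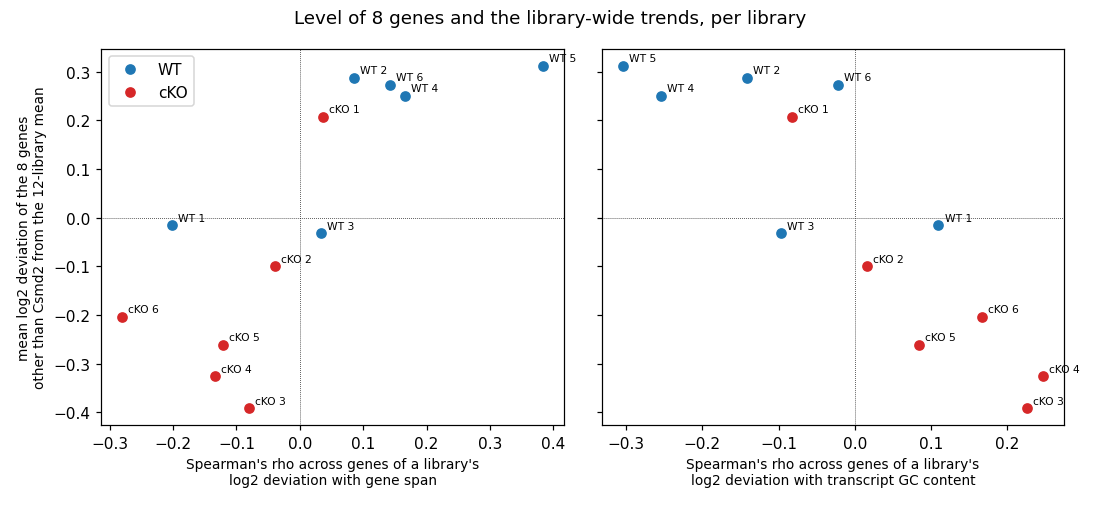
Mean log2 deviation of the 8 genes other than Csmd2 (y axis) against each library's Spearman's rho across genes with gene span (left) and with transcript GC content (right), 1 point per library, WT blue and cKO red. WT 2, 4, 5 and 6 and the library labelled cKO 1 lie at the top, and cKO 3 to 6 at the bottom.

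Markers of cell types were counted in the same fit, and none passed the threshold in edgeR; at an unadjusted p under 0.05, 9 smooth muscle and pericyte markers, 2 each of astrocytes, endothelium and meningeal fibroblasts, and 1 each of CA3 and CA2 neurons and thalamus were higher. At the same level 2 excitatory, 1 pan-neuronal, 1 granule neuron and 1 astrocyte marker were lower. Over all 19325 genes tested, 618 were higher and 1225 lower at that level. Of 12 pan-neuronal markers, 8 were lower, with summed levels of 6934 to 7923 CPM in WT and 6858 to 7843 in cKO. Of 8 markers of excitatory neurons 7 were lower (7287 to 8159 CPM in WT, 6990 to 7911 in cKO), and of 13 interneuron markers 10 were higher (953 to 1113 and 943 to 1189 CPM). All 10 granule neuron markers were lower (610.1 to 704 and 438 to 710.1 CPM). All 12 oligodendrocyte markers were lower too (3655 to 5503 and 2984 to 4912 CPM). Of 12 smooth muscle and pericyte markers, 11 were higher. Their sums did not overlap, the library labelled cKO 1 included (240.3 to 282 CPM in WT, 302 to 374 in cKO). All 10 choroid plexus markers were higher, with sums that spread from 88.8 to 8377 CPM in WT and from 58.1 to 5617 in cKO. All 10 meningeal fibroblast markers were higher as well (197 to 526 CPM in WT, 352 to 553 in cKO). No defining marker of these lists was listed at 0. Without the library labelled cKO 1, 8.96% of all genes were lower at an unadjusted p under 0.05, and 2381 of 19457 passed in either direction. At that level 7 smooth muscle and pericyte and 2 endothelial markers were then higher. So was 1 marker each of interneurons, CA3 and CA2 neurons, astrocytes and meningeal fibroblasts. Lower were 4 granule neuron, 2 excitatory and 2 neocortex markers. So was 1 each of the pan-neuronal, astrocyte, oligodendrocyte, oligodendrocyte precursor and thalamus markers. Their part in the values of the 9 genes was not tested.

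The cluster's own sequences were set against the 3′ UTRs, since the seed of a microRNA, bases 2 to 8, pairs with its targets there. Of 39 hairpins listed for the cluster, 36 were found in RefSeq within its bounds, with 67 mature miRNAs and 60 distinct seeds. The longest annotated 3′ UTRs of 8 of the genes held 104 seed matches in 25405 bases, or 4.09 per kb; Cntnap5c, with a UTR of 13 bases, was left out. The median of single genes' rates over 15269 genes was 3.64 per kb, with quartiles of 2.33 and 4.92. The 4.09 per kb is pooled over bases and so is an unlike measure, and UTR length was not matched. Csmd3 had 7.17 per kb and Cntnap5b 5.64, against 2.93 in Nbea, 3.17 in Lrp1b and 3.34 in Csmd2. A seed match is a run of letters and not evidence of binding.

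The 5 miRNAs whose seed matched at least 4 of these UTRs are shown with their seed in capitals, 5′ to 3′, from RefSeq for GRCm38.p6; all lie on the plus strand of chr12.
mmu-miR-409-3p: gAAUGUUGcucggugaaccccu
mmu-miR-382-3p: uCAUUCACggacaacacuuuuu
mmu-miR-376a-5p: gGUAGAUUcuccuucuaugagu
mmu-miR-668-5p: gUAAGUGUgccucgggugagcaug
mmu-miR-410-3p: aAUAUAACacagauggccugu
miR-409-3p lies at chr12:109743204-109743225 and matched 5 genes, Csmd1, Csmd3, Cntnap2, Cntnap5a and Cntnap5b. Its site, CAACATT, stood in 16.1% of the 7214 UTRs of 1241 to 6649 bases, the range of the 8 genes. The sites of miR-382-3p and miR-376a-5p stood in 19.4% and 9.86% of those UTRs, and those of miR-668-5p and miR-410-3p in 15.03% and 14.8%.

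Csmd3 held 3 of the 7 miR-409-3p sites, and Cntnap5a and Cntnap5b held theirs in like surroundings. They are shown on the transcript's strand with the site in capitals, to let the copies be compared; positions count from the first base of the 3′ UTR.
Csmd3, bases 767 to 773: gtttgcctCAACATTctttgtca
Csmd3, bases 860 to 866: cttgttacCAACATTttaaacca
Csmd3, bases 1529 to 1535: aattttctCAACATTgtattcta
Cntnap5a, bases 590 to 596: agggaaagCAACATTtgtttcta
Cntnap5b, bases 560 to 566: agagaaagCAACATTtgttcttt
The 5 genes with a miR-409-3p site had log2 fold changes from -0.52 in Cntnap5b to -0.21 in Cntnap2, and of the 3 without one, Nbea had -0.26, Lrp1b -0.38 and Csmd2 0.05.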

How the data were processed

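The authors deposited estimated counts (expected counts, not whole numbers) per gene symbol for 6 WT and 6 cKO hippocampus libraries; Salmon 1.3.0 and GRCm38 are named per the submitters' processing notes. Which annotation and strand setting they used is not stated in the labels or notes used here. Counts were rounded. Genotypes were compared over all 12 libraries with edgeR 4.0.16 (quasi-likelihood, TMM, filterByExpr with a count minimum of 10, Benjamini-Hochberg adjustment over 19325 genes) in R 4.3.3; DESeq2 1.42.0 and voom of limma 3.58.1 were alternatives. Genotype was the only term, and p-values measure the spread between animals. Covariation used log2 CPM with a prior count of 2. Spans, transcripts and UTRs came from GENCODE annotation of GRCm38, and miRNA sequences from RefSeq. The fits were tested on simulated data.

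The members and lists were chosen with earlier results of these data known. Named genes were the 9 members, the 3 genes most like each, up to 4 of each list with the smallest p, and Emx1, B830012L14Rik, Malat1, Meg3, Mirg and Ttr; a few single genes under this rule are not reported here. Values that were not whole made up 24.8% to 25.9% of each library. Libraries of 1 genotype always differed beyond counting noise (the smallest chi-square per degree of freedom was 8.51). Offsets for transcript GC content and length were chosen after seeing the data.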

Additional observations from a re-analysis of the deposited data

Results flagged for a closer look

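Of 40 groups of 6 libraries examined for a single library apart from the rest, 6 had one. For independent groups, chance gives about 1 in 20, or 2. These groups are not independent, since the 9 genes were chosen for their genotype difference and covariation. Nothing is therefore read from that comparison. In 5 of the 6 groups the library apart was the one labelled cKO 1. It was the highest of the cKO group in Csmd3 at 38.5 CPM, in Cntnap5c at 21.8 CPM, in Nbea at 365 CPM and in Emx1 at 9.14 CPM, and the lowest in B830012L14Rik at 0.788 CPM. At each of these genes except Csmd3, where it lay above the highest WT library, it fell within the range of the 6 WT libraries. The library cKO 3 was the lowest of cKO in Csmd1, at 70.8 CPM.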

How the results depend on the processing

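The 8 lower genes stayed lower and Csmd2 stayed higher in all 24 settings, the main one included. Genes called by edgeR numbered 2, and 1 without a low-count filter, 1 with a minimum of 1 CPM in 6 libraries and 1 with an offset for transcript GC content. DESeq2 called 83 and voom 0 (1847 at an unadjusted p under 0.05), and leaving out WT 2, WT 3 and cKO 4 gave 0. Leaving out 1 library at a time gave 0 to 6, with 6 without the library labelled cKO 1 and 0 without any other. The median log2 fold change of the 9 genes ranged from -0.32 to -0.24 as single libraries were left out. It was -0.15 with the offset for transcript length, under which Csmd1 was at -0.08 and Csmd2 at 0.19. With that offset 5 in place of 8 genes were lower at an unadjusted p under 0.05, where 1662 of 19325 genes passed in either direction. The median for other genes of at least 500 kb ranged from -0.10 to -0.05 as single libraries were left out, and was -0.04 with the length offset. The median pairwise r, 0.61, was 0.70 without WT 2, WT 3 and cKO 4, 0.52 with the GC offset and 0.070 with the length offset; it ranged from 0.50 to 0.66 as single libraries were left out. The cause of these changes was not tested. Both offsets were chosen after seeing the data.

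With the animal number as a replicate block, edgeR called 0 genes (1724 at an unadjusted p under 0.05), and the 9 genes had a median of -0.26 and a median r of 0.65. Deviations of same-numbered libraries correlated at -0.28 to 0.42 across genes, and 2 of 6 WT libraries correlated best with their own number. Whether the numbers pair the animals cannot be decided from this, as a pairing need not show in correlations across genes. Depth limits Cntnap5b most, at 227 to 582 counts per library.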

Other observations

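Of 9 nuclear-retained RNAs, 3 were higher and 6 lower in cKO, with a median log2 fold change of -0.03. None passed in edgeR, where 3 were lower at an unadjusted p under 0.05, as were 6.34% of all genes. Snhg14, the long non-coding transcript that runs antisense to Ube3a, spans 668 kb and was at 254 ± 55.5 CPM in the WT group and 179 ± 27.0 CPM in the cKO group (mean ± SD, n = 6). Its log2 fold change was -0.50 ± 0.14 (SE), with an edgeR adjusted p of 0.343. Across 12 libraries, genotype centred, it had r = 0.85 with the mean of the 8 genes other than Csmd2. Kcnq1ot1 was at 42.8 ± 5.36 and 36.5 ± 2.17 CPM, with r = 0.67. Without the library labelled cKO 1 these r values were 0.82 and 0.62. At an unadjusted p under 0.05, 3 of the 9 RNAs were again lower and 1 was higher. In that fit 8.96% of all genes were lower at that level, and 2381 of 19457 passed in either direction. Mirg, a non-coding RNA that hosts part of the cluster, was at 30.7 ± 2.39 and 34.1 ± 7.31 CPM, and its r was -0.69, or -0.34 without that library. Meg3, another non-coding RNA of that region, was at 4320 to 5613 CPM in WT and 3416 to 6003 in cKO. Its r was -0.50, or 0.02 without that library, and 0.17 within WT. For B830012L14Rik, of the same region, r was -0.69, or -0.04 without that library.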
